A study of Mus musculus with 7 samples.

Results

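Heat shock proteins are molecular chaperones, and the 10 genes described here were Hspa1a, Hspa1b, Hspa8, Hspa5, Hsp90aa1, Hsp90ab1, Hsph1, Dnajb1, Hspe1 and Hspd1. They were taken by gene symbol from a table of 55335 gene identifiers, not by their values. The RNA came from type 2 innate lymphoid cells (ILC2s), sorted from mouse hearts as CD45+ Lineage- ST2+ cells and sequenced as 3 libraries of naive hearts and 4 libraries of heart allografts. The allografts came from the Balb/C to C57BL/6 (B6) transplant model, in which grafts are acutely rejected, and were taken on day 7 after transplantation. Each library pooled the cells of 4 to 7 hearts, so the p-values measure the spread between pools. The labels gave neither the strain, age or sex of the naive mice nor a genotype, and they carried the time of 7 days for the naive libraries too. An allograft holds ILC2s of the donor heart as well as cells of the recipient that have entered it, and the labels do not tell these apart. The comparison asked how heat shock transcripts differ between ILC2s of a rejected graft and of a resting heart.

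Chaperones of the HSP70 class bind and release unfolded stretches of proteins in a cycle that uses ATP. HSP40 (J domain) proteins deliver clients to HSP70, HSP110 proteins exchange its nucleotide, and HSP90 takes over clients such as kinases and steroid receptors. HSP60 and its lid HSP10 fold proteins inside mitochondria, and BiP does so in the endoplasmic reticulum. Heat and protein damage raise the cytosolic members through heat shock factor 1 (HSF1), which binds inverted repeats of a short unit in their promoters. In immune cells some of these genes also respond to activation and to the enzymatic and mechanical release of cells from tissue.

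Promoters are shown for 4 of the genes, to set the near-identical Hspa1a and Hspa1b side by side and to print the windows of Hspe1 and Hspa5, which carried other motifs. RefSeq windows (GRCm38.p6) of 300 bases, 250 before and 50 after a transcript start, were at hand for 7 of the 10 genes. The letters GAANNTTC are 2 inverted units of the heat shock element and read the same on both strands. They occurred in 7.86% of all 32851 windows. The stretch of 3 units, GAANNTTCNNGAA, was searched on both strands, contains the former and occurred in 0.603% of windows. The endoplasmic reticulum stress element, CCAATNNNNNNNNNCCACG, was searched on both strands and occurred in 0.119%. Capitals in the lines below mark these matches, which are descriptions of the letters and not measured binding. The HSP70 genes Hspa1a (minus strand, chr17:34972107-34972406) and Hspa1b (minus strand, chr17:34959189-34959488) each held 2 units at bases 147 to 154 of the window, and their windows were identical at 296 of 300 bases (98.7%). The HSP10 gene Hspe1 (plus strand, chr1:55087898-55088197) held overlapping stretches of 3 units at bases 162 to 179. The HSP60 gene Hspd1 lies head to head with it, and 1 of the 2 windows of Hspd1 covered 285 of the same bases on the other strand, with the same matches. The BiP gene Hspa5 (plus strand, chr2:34771840-34772139) held the endoplasmic reticulum stress element at bases 186 to 204.
Hspa1a: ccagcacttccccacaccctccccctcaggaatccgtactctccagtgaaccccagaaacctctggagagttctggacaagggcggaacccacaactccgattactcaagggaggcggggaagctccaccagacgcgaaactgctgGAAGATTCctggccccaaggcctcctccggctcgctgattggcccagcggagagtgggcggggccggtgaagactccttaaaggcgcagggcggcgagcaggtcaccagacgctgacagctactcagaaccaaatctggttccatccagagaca
Hspa1b: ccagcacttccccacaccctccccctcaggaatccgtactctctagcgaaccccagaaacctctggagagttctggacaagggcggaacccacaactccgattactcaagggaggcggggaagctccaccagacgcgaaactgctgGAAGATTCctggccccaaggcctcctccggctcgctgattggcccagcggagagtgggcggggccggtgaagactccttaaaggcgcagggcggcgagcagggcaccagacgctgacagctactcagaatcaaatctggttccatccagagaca
Hspe1: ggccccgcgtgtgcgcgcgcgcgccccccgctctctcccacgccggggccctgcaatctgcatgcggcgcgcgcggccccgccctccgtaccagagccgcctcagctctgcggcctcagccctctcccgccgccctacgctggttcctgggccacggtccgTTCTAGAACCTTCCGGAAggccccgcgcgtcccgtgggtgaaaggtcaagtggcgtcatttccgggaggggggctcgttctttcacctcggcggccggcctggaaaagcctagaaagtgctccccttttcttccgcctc
Hspa5: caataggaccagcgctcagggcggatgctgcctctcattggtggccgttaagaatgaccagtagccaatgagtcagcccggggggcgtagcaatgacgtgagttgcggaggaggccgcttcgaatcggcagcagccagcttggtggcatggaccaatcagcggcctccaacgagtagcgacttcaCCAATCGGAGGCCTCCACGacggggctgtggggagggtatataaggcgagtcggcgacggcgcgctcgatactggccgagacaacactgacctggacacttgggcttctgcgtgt
Both windows of Hsph1 held 1 stretch of 3 units, and neither window of Dnajb1 held any of the 3 motifs.

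The 3 naive libraries differed widely in genes other than the heat shock genes, and naive replicate 2 held little of the ILC2 signal that its label implies. Total counts per library ran from 29107326 to 53044907, and CPM are counts scaled to a total of 1000000 per library. Mitochondrially encoded transcripts took 26.5% of the counts of naive replicate 2 and 2.04% to 3.11% of the others. The 12 ILC2 markers summed to 199 CPM in naive replicate 2, against 6312 to 8293 CPM in the other 6 libraries. Il1rl1, the gene of the sorted receptor ST2, had 6.79 CPM there and 343 to 756 CPM elsewhere. All 12 kidney genes were detected in naive replicate 2 and summed to 10570 CPM, against 70.3 to 318 CPM in the others. Its endothelial sum was 535 CPM against 8.26 to 47.4 CPM, and its erythroid sum was 2937 CPM against 468 to 786 CPM. In naive replicate 3 the 17 genes of the early response to dissociation, which include Fos and Jun, summed to 58466.5 CPM, against 12431 to 26326 CPM in the others. In naive replicate 1 the lung epithelium, myeloid and fibroblast sums were each the lowest of the 7 libraries. Lung epithelium genes summed to 7.35, 236 and 735 CPM in the naive libraries and to 280 to 718 CPM in the allografts. The sums of the T cell list were 13.7 to 179 CPM in the naive group and 200 to 248 CPM in the allografts, and those of the B cell list 0 to 120 and 90.2 to 156 CPM. The myeloid sums were 2.49, 263 and 453 CPM in naive and 193 to 315 CPM in allograft libraries. The fibroblast sums were 0.0566, 143 and 114 CPM and 22.8 to 71.9 CPM, and the cardiomyocyte sums 3.86 to 23.9 and 13.3 to 39.4 CPM. The part of these lists in the heat shock values was not tested.

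The 10 heat shock genes together made up 1.45% to 1.60% of all counts in the 4 allografts and 1.01%, 0.354% and 1.63% in the naive libraries. Values are given throughout in the order of the replicate numbers. Naive replicate 3 thus lay above every allograft, naive replicate 1 below all of them, and naive replicate 2 lowest. Without the mitochondrially encoded counts the share of naive replicate 2 was 0.482%, still the lowest. The least abundant value of any of the 10 genes was 2018 counts, for Hsph1 in naive replicate 2, so that none depended on the filter against low counts. In bulk libraries, fewer cells of a type and less RNA per cell cannot be told apart.

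**Figure D1:**
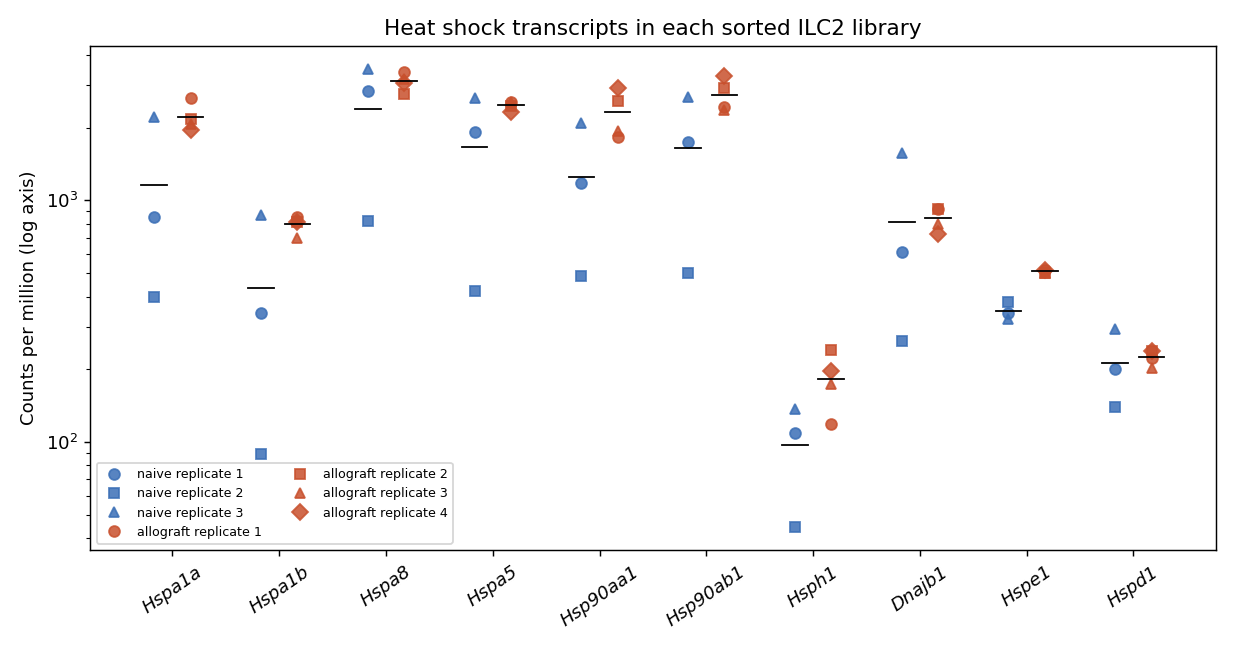
CPM of the 10 heat shock genes (log axis) in the 3 naive (blue) and 4 allograft (red) libraries, with black bars for group means. Naive replicate 2 (blue squares) is lowest of the naive libraries for 9 genes and naive replicate 3 (blue triangles) highest for the same 9, while for Hspe1 the 3 naive libraries lie together below the allografts.

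**Figure D2:**
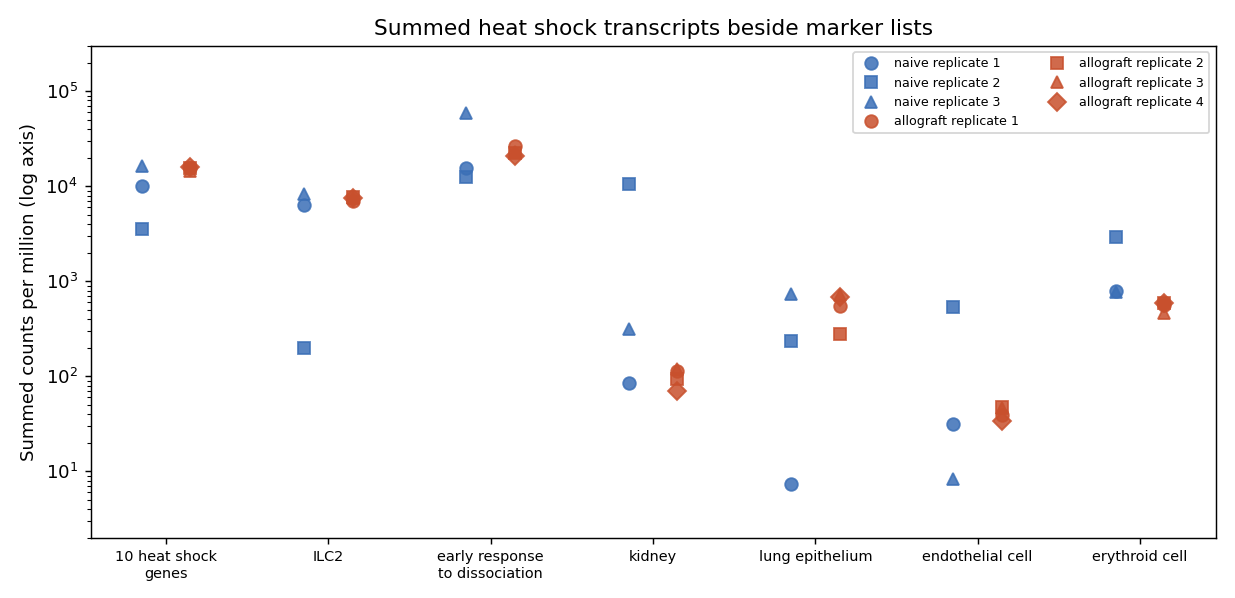
Summed CPM (log axis) of the 10 heat shock genes and of 6 marker lists in each library, naive in blue and allograft in red. Naive replicate 2 has 199 CPM of ILC2 markers and 10570 CPM of kidney genes, and naive replicate 3 has 58466.5 CPM of early response genes.

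Levels between genes are compared per length, as FPKM (fragments scaled to gene length and library depth). In the allografts Hsp90ab1 was highest at 792 ± 122 FPKM (SD, n = 4), followed by Hspa1a at 644 ± 85.4, Hspa8 at 625 ± 52.3, Hsp90aa1 at 510.2 ± 115 and Hspa5 at 505 ± 22.3 FPKM. The order among these 5 changed from library to library, and the ranges of neighbours in this order overlapped. Hspe1 stood next at 299 ± 5.18 FPKM, below the 5 and above Hspa1b at 245 ± 19.7 and Dnajb1 at 227 ± 25.1 FPKM, in each of the 4 allografts. Hspd1 at 73.9 ± 5.57 and Hsph1 at 21.7 ± 6.03 FPKM were the 2 lowest in every allograft. In its own library the level of Hsp90ab1 ranked between 59 and 83 among all genes of the allografts, and between 62 and 307 in the naive libraries. Naive replicate 2 had another order, with Hspe1 first at 238 FPKM and Hspa8 second at 175 FPKM.

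The stress-inducible HSP70 genes Hspa1a (ENSMUSG00000091971, mm10 chromosome 17, 34969190 to 34972156, minus strand) and Hspa1b (ENSMUSG00000090877, chromosome 17, 34956436 to 34959238, minus strand) are neighbours separated by 9951 bases. Their coding sequences were identical at 1918 of 1926 aligned bases (99.6%). Of all 100-base stretches of the Hspa1a transcript, 47.1% also occurred in that of Hspa1b, so the division of reads between them depends on the counting, which is not given in the sources used here. Hspa1a stood at 854, 398 and 2212 CPM among naive libraries and at 2653, 2168, 2077 and 1964 CPM among allografts. Hspa1b stood at 341, 89.2 and 869 CPM among naive libraries and at 856, 814, 701 and 817 CPM among allografts. For both genes naive replicate 3 lay at the height of the allografts, and naive replicates 1 and 2 lay below all of them. The means were 1155 ± 944 CPM (SD, n = 3) in naive libraries and 2216 ± 304 CPM (SD, n = 4) in allografts for Hspa1a, and 433 ± 398 and 797 ± 66.7 CPM for Hspa1b. The log2 fold change was 0.83 (SE 0.55, adjusted p = 0.723) for Hspa1a and 0.79 (SE 0.61, adjusted p = 0.760) for Hspa1b. The summed pair stood at 1195, 487 and 3081 CPM among naive libraries and at 3509, 2982, 2778 and 2781 CPM in allograft libraries. The sum does not depend on that division, but it is too low if reads that fit both genes were dropped in counting. The same holds for the FPKM of both genes and for ratios that use them. Whether such reads were dropped is not given either. The share of Hspa1b in the sum was 18.3% in naive replicate 2 and 24.4% to 29.4% in the others. The fitted log2 fold change of the sum, allograft over naive, was 0.82 (SE 0.58, adjusted p = 0.740). It was 0.44 (SE 0.39, adjusted p = 0.599) without naive replicate 2 and 1.67 (SE 0.42, adjusted p = 0.163) without naive replicate 3. Gm20481, an annotated gene on the other strand, overlaps Hspa1a and had at most 300 counts in any library.

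Dnajb1 and Hsph1, which work with HSP70, had different patterns over the libraries. Dnajb1 (ENSMUSG00000005483, chromosome 8, 83608193 to 83612653, plus strand) encodes an HSP40 that is induced with HSP70. It stood at 612, 261 and 1571 CPM among naive libraries and at 920.4, 920.7, 798 and 728 CPM among allografts. Naive replicate 3 exceeded every allograft, and naive replicates 1 and 2 were below every allograft. Its log2 fold change was -0.06 (SE 0.52, adjusted p = 0.992) over all libraries, -0.43 (SE 0.38) without naive replicate 2 and 0.77 (SE 0.34) without naive replicate 3, so its direction depended on which naive libraries entered. Hsph1 (ENSMUSG00000029657, chromosome 5, 149614287 to 149636376, minus strand) encodes the HSP110 nucleotide exchange factor. It stood at 109, 44.4 and 137 CPM among naive libraries and at 119, 240, 174 and 196 CPM among allografts, so that allograft replicate 1 lay among the naive libraries and the other 3 above them. Among the 10 genes Hsph1 had the smallest unadjusted p, 0.0792, with a change of 0.78 on the log2 scale (SE 0.38, adjusted p = 0.577).

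The cytosolic HSP90 genes had higher means in the allografts without a separation of the groups. Hsp90aa1 (ENSMUSG00000021270, chromosome 12, 110690605 to 110702728, minus strand), the form that stress induces more, stood at 1183, 485 and 2086 CPM among naive libraries and at 1831, 2584, 1934 and 2915 CPM among allografts. Hsp90ab1 (ENSMUSG00000023944, chromosome 17, 45567775 to 45573271, minus strand), the constitutive form, stood at 1749, 500.1 and 2674 CPM among naive libraries and at 2440, 2905, 2359 and 3258 CPM among allografts. For each of them allograft replicates 2 and 4 exceeded every naive library, and allograft replicates 1 and 3 lay below naive replicate 3. Allograft replicates 2 and 4 were also the 2 highest for Hsph1, but not for Hspa1a, where allograft replicate 1 was highest. The log2 fold change was 0.77 (SE 0.49, adjusted p = 0.711) for Hsp90aa1 and 0.64 (SE 0.52, adjusted p = 0.778) for Hsp90ab1. Without naive replicate 2 they were 0.44 (SE 0.33) and 0.25 (SE 0.26), and without naive replicate 3 they were 1.297 (SE 0.43) and 1.15 (SE 0.48).

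Hspa8 (ENSMUSG00000015656, chromosome 9, 40800984 to 40810087, plus strand) encodes the constitutive cytosolic HSP70, HSC70. It stood at 2835, 821 and 3500.1 CPM among naive libraries and at 3403, 2763, 3193 and 3070 CPM among allografts. Naive replicates 1 and 3 lay within or just outside the range of the allografts, and only naive replicate 2 was far from it. The log2 fold change of 0.28 (SE 0.48, adjusted p = 0.928) was -0.08 (SE 0.19) without naive replicate 2. Hspa5 (ENSMUSG00000026864, chromosome 2, 34771970 to 34777547, plus strand) encodes BiP, the HSP70 of the endoplasmic reticulum and a target of the unfolded protein response. It stood at 1911, 422 and 2648 CPM among naive libraries and at 2549.9, 2455, 2555 and 2318 CPM among allografts, whose highest value was 1.10 times the lowest. Naive replicate 3 exceeded every allograft and naive replicates 1 and 2 were below them. Its log2 fold change of 0.49 (SE 0.54, adjusted p = 0.853) was 0.06 (SE 0.20) without naive replicate 2 and 0.97 (SE 0.52) without naive replicate 3.

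Hspe1 had another order of the naive libraries than the rest of the 10 genes. Hspe1 (ENSMUSG00000073676, chromosome 1, 55088132 to 55091307, plus strand) encodes HSP10, the lid of the mitochondrial chaperonin. It stood at 343, 381 and 322 CPM among naive libraries and at 517, 501, 498 and 517 CPM among allografts. Every allograft exceeded every naive library, which was so for 12.5% of the 17015 genes tested. It was the only gene of the 10 with such a separation, which is close to that share. The naive libraries spread by 29.7 CPM (SD, n = 3) around 349 CPM and the allografts by 10.1 CPM (SD, n = 4) around 508 CPM, and naive replicate 2 was here the highest naive library. The separation depended on the total: as CPM of the counts without mitochondrially encoded genes, naive replicate 2 reached 518 and lay among the allografts at 511 to 533. The log2 fold change was 0.29 (SE 0.32, adjusted p = 0.851), and 0.57 (SE 0.17, unadjusted p = 0.0141, adjusted p = 0.136) without naive replicate 2.

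Hspd1 (ENSMUSG00000025980, chromosome 1, 55077835 to 55088243, minus strand), which encodes HSP60, the barrel that HSP10 closes, stood at 201, 140 and 294 CPM among naive libraries. Its allograft values were 222, 238, 202 and 238 CPM, between naive replicates 1 and 3. Its log2 fold change was -0.08 (SE 0.29, adjusted p = 0.970). The annotated ends of Hspd1 and Hspe1 overlap by 112 bases on opposite strands, and no source used here states that strand was used in counting. The rows named as pseudogenes of Hspd1 held between 2.84% and 3.97% of its counts, and those of Hspe1 at most 0.219% of its counts.

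None of the 10 genes passed an adjusted p of 0.05 with edgeR over all 7 libraries, where 6 of 17015 genes did (0.0353%). At an unadjusted p under 0.05 there were also 0 of 10, against 10.3% of all genes. DESeq2 called 0 of the 10, against 6.98% of the genes for which it gave an adjusted p. Without naive replicate 2 edgeR called 0 of 10 (3.1% of all genes), and 1 of 10 had an unadjusted p under 0.05, Hspe1, against 20.2% of all genes. Without naive replicate 3 it again called 0 of 10 (0.0372% of all genes). At an unadjusted p under 0.05 there were then 4, Hspa1a, Hspa1b, Hsp90aa1 and Hsph1, against 16.7% of all genes. The log2 fold changes of these 4 without naive replicate 3 ran from 1.07 (SE 0.39, unadjusted p = 0.0334) for Hsph1 to 1.76 (SE 0.46, unadjusted p = 0.00828) for Hspa1b. The mean CPM was higher in allografts for all 10 genes, and the share of all genes with a higher mean was not counted. In CPM, every allograft lay above every naive library for 12.5% of all genes tested and below for 2.15%. In the fit, which rescales the libraries (TMM), 8 of the 10 log2 fold changes were above 0 and those of Dnajb1 and Hspd1 below, with a median of 0.56 against -0.01 over all genes tested. With limma on log2(FPKM + 1) 10 of 10 were above 0, with a median of 0.90 against 0.35 over all genes. Without naive replicate 2 there were 7 of 10 higher, and the median was 0.30 against 0.23 over all genes, and without naive replicate 3 there were 10 of 10 and 1.02 against 0.05. With DESeq2 size factors in the same fit the medians were 0.43 for the 10 genes and -0.20 over all genes. Leaving out naive replicate 3 also removed the library with 58466.5 CPM of early response genes. Whether the 2 are related was not tested.

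**Figure D3:**
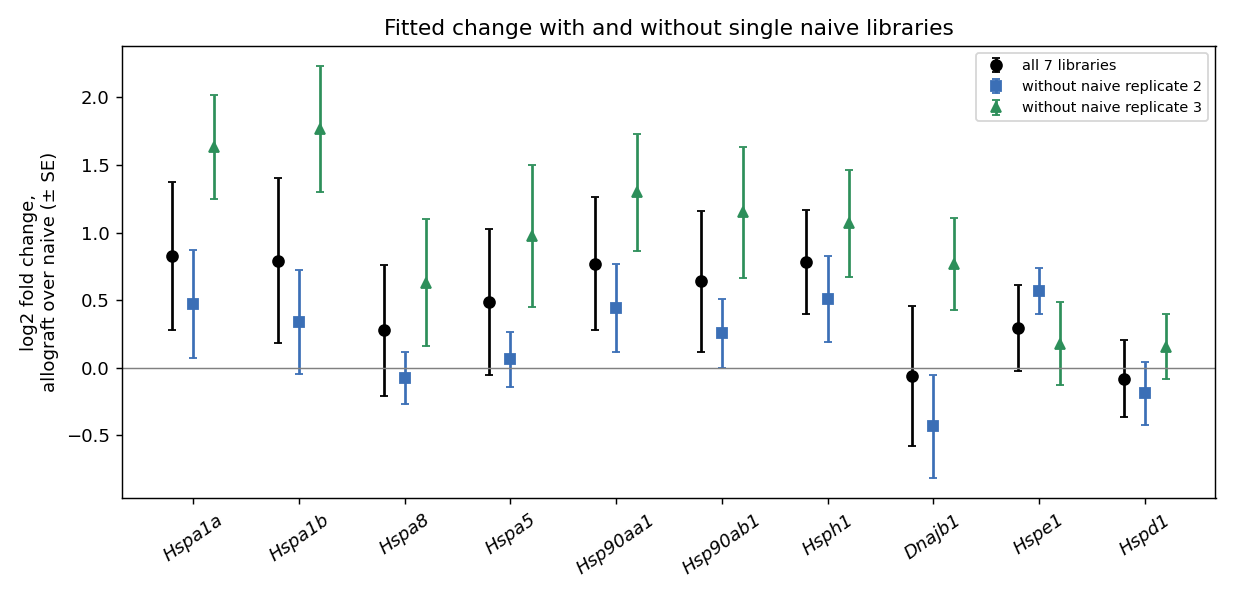
Fitted log2 fold change of each heat shock gene, allograft over naive, with its standard error, over all 7 libraries (black), without naive replicate 2 (blue) and without naive replicate 3 (green). Leaving out naive replicate 3 moves 9 genes upward and Hspe1 from 0.29 to 0.18, and leaving out naive replicate 2 moves 9 genes downward and Hspe1 to 0.57.

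The naive libraries differed among themselves by more than the groups did for most of the 10 genes. The highest naive value was 9.74 times the lowest for Hspa1b, 6.27 times for Hspa5, 6.03 times for Dnajb1 and 1.18 times for Hspe1. In the allografts the corresponding values ran from 1.04 times for Hspe1 to 2.01 times for Hsph1. For all 10 genes the SD of log2 CPM was larger among the 3 naive libraries than among the 4 allografts. It was 1.65 against 0.13 for Hspa1b, 0.86 against 0.42 for Hsph1 and 0.12 against 0.03 for Hspe1. The share of all genes with a larger SD among naive libraries was not counted. The wider naive spread is therefore not shown to be particular to these 10 genes.

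Ratios of FPKM within a library do not depend on how libraries are scaled, and 4 of them were tested by two-sided exact permutation of the 7 libraries (35 arrangements), with Benjamini-Hochberg adjustment over the 4. The ratio of inducible to constitutive HSP70 (Hspa1a plus Hspa1b over Hspa8) was 0.620, 0.866 and 1.29 in naive libraries and 1.51, 1.59, 1.28 and 1.33 in allografts. The groups overlapped only through naive replicate 3, which lay just above allograft replicate 3. The mean log2 ratio was higher in allografts by 0.68 (exact p = 0.0571, adjusted p = 0.171), and by 0.42 without naive replicate 1. It was higher by 0.67 without naive replicate 2 and by 0.96 without naive replicate 3. The ratio of endoplasmic reticulum to cytosolic HSP70 (Hspa5 over Hspa8) was 0.685, 0.523 and 0.770 in naive libraries and 0.762, 0.904, 0.814 and 0.768 in allografts. Naive replicate 3 lay just above the 2 lowest allografts. This log2 ratio was higher in allografts by 0.32 (exact p = 0.0857, adjusted p = 0.171), by 0.16 without naive replicate 2 and by 0.44 without naive replicate 3. HSP60 over HSP10 (Hspd1 over Hspe1) was 0.328, 0.205 and 0.509 in naive libraries and 0.240, 0.265, 0.226 and 0.257 in allografts, which lay between naive replicates 1 and 2. The mean log2 ratio differed by -0.39 (exact p = 0.314, adjusted p = 0.419), by -0.73 without naive replicate 2 and by -0.07 without naive replicate 3. The inducible over the constitutive HSP90 (Hsp90aa1 over Hsp90ab1) was 0.515, 0.739 and 0.595 in naive libraries and 0.572, 0.678, 0.625 and 0.682 in allografts, within the naive range (log2 difference 0.06, exact p = 0.657, adjusted p = 0.657). The smallest p that 3 against 4 libraries can give is 0.0286. After the adjustment over the 4 ratios, a single separated ratio could therefore not pass 0.05. These adjusted p do not show that a ratio was unchanged.

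**Figure D4:**
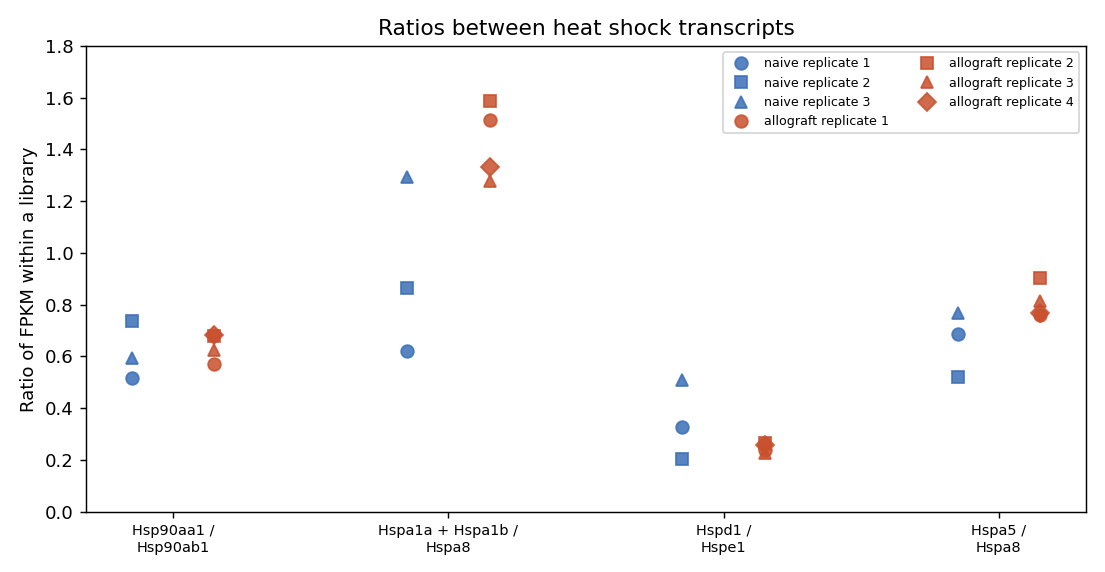
Ratios of FPKM between heat shock genes in each library, with naive libraries in blue and allografts in red. The 4 allografts lie at 1.28 to 1.59 for Hspa1a plus Hspa1b over Hspa8, where naive replicates 1 and 2 lie at 0.620 and 0.866 and naive replicate 3 at 1.29.

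The other genes of the chaperone network were read from 4 lists, beside a list of early response genes, 105 genes in all. With edgeR over all libraries 0 of the 105 passed, where 0.0353% of all genes did, and 8 had an unadjusted p under 0.05, against 10.3% of all genes. DESeq2 called 2 of them, against 6.98% of all genes. Of the 37 cytosolic heat shock and co-chaperone genes, 23 were lower in the fit (median log2 fold change -0.16). The median over all genes tested was -0.01 in that fit. The direction depended on the setting. With limma on log2(FPKM + 1) 22 of 33 were higher (median 0.14, against 0.35 over all genes). With the replicate block 20 of 37 were higher (median 0.02, against 0.55 over all genes). With DESeq2 size factors 28 of 37 were lower (median -0.34, against -0.20 over all genes). Hsf1, the regulator named above, stood at 79.3, 22.05 and 135 CPM among naive libraries and at 45.1 to 69.3 CPM among allografts, and its fitted log2 value differed by -0.51 (SE 0.48, adjusted p = 0.817). The co-chaperone gene Bag3, an HSF1 target, stood at 8.48 to 26.2 CPM among naive libraries and at 17.0 to 21.7 CPM among allografts (log2 fold change -0.17, SE 0.54). Hspb1, the small heat shock protein HSP27 in humans, stood at 61.8, 176 and 89.7 CPM among naive libraries and at 127 to 162 CPM among allografts (0.08, SE 0.50), and 0.91 (SE 0.26, adjusted p = 0.129) without naive replicate 2. The smallest p of this list belonged to Bag4, a BAG-domain partner of HSP70, at 80.7, 77.04 and 18.1 CPM among naive libraries and at 13.9 to 28.1 CPM among allografts (log2 fold change -1.79, SE 0.60, adjusted p = 0.341). Next was Cryab, the small heat shock protein alpha-B crystallin, with 5.20, 393 and 0 CPM in naive libraries. Its log2 fold change of -4.74 (adjusted p = 0.534) was 1.48 (adjusted p = 0.730) without naive replicate 2. It was followed by the HSP40 gene Dnajb4 at 51.6, 63.5 and 182 CPM among naive libraries and at 48.6 to 72.8 CPM among allografts (-0.96, SE 0.46, adjusted p = 0.556).

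Of the 24 endoplasmic reticulum chaperone and unfolded protein response genes, 15 were higher in the fit (median 0.18, against -0.01 over all genes). With DESeq2 size factors 12 were higher and 12 lower (median -0.01, against -0.20 over all genes). The split was the same without naive replicate 3 (median -0.01, against 0.05 over all genes). Without naive replicate 1 the median was 0.61, against 0.04 over all genes. Dnajb9, the HSP40 ERdj4 of that compartment, stood at 92.3, 113 and 209 CPM among naive libraries and at 69.8, 67.8, 61.04 and 54.9 CPM in allograft libraries, so every allograft was below every naive library, which was so for 2.15% of all genes (log2 fold change -1.33, SE 0.35, adjusted p = 0.216). DESeq2 called it with a log2 fold change of -1.55 (adjusted p = 0.00918). Atf6, a sensor of unfolded proteins, stood at 21.1, 9.12 and 4.98 CPM among naive libraries and at 32.0 to 37.8 CPM among allografts (1.42, SE 0.54, adjusted p = 0.395). Calr, the lectin chaperone calreticulin, stood at 325, 118 and 269 CPM among naive libraries and at 375 to 535 CPM among allografts (0.79, SE 0.34, adjusted p = 0.477). Hsp90b1, the HSP90 of the endoplasmic reticulum, stood at 624, 253 and 372 CPM among naive libraries and at 651 to 786 CPM among allografts (0.60, SE 0.33, adjusted p = 0.628). Atf6, Calr and Hsp90b1 were each higher in every allograft than in every naive library, as 12.5% of all genes were. Dnajb9, Atf6 and Calr were named for the smallest p of the list, so that choice favoured genes with separated groups.

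Of the 13 mitochondrial chaperone and protease genes, 10 were lower in the fit (median -0.57, against -0.01 over all genes). Hspa9, the mitochondrial HSP70 mortalin, stood at 115, 172 and 149 CPM among naive libraries and at 86.1 to 118 CPM among allografts (log2 fold change -0.78, SE 0.35, adjusted p = 0.514). Clpp, a matrix protease, stood at 84.4, 106 and 44.4 CPM among naive libraries and at 44.2 to 66.6 CPM among allografts (-0.82, SE 0.44, adjusted p = 0.625). Spg7, a protease of the inner membrane, stood at 35.9 to 48.7 CPM among naive libraries and at 56.8 to 99.5 CPM among allografts (0.55, SE 0.30, adjusted p = 0.642). Without naive replicate 2 the median of this list was -0.06, against 0.23 over all genes. Without naive replicate 3 it was -0.815, against 0.05 over all genes. With the mitochondrially encoded genes removed it was -0.60, against -0.04 over all genes. Of the 14 genes of the cytosolic chaperonin and of prefoldin, which fold actin and tubulin, 12 were higher in the fit (median 0.20). Without naive replicate 3 there were 6 of 14 (median -0.02, against 0.05 over all genes). With DESeq2 size factors there were 7 of 14 (median 0.03, against -0.20 over all genes). The prefoldin subunit gene Pfdn5 stood at 182, 161 and 226 CPM among naive libraries and at 293 to 347 CPM among allografts (0.57, SE 0.27, adjusted p = 0.561). The chaperonin subunit genes Cct2 (0.59, SE 0.34, adjusted p = 0.660) and Tcp1 (0.55, SE 0.47, adjusted p = 0.789) followed.

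Of the 17 early response genes, 13 were lower in the fit (median -0.85, against -0.01 over all genes). Without naive replicate 3, 9 of 17 were lower (median -0.01, against 0.05 over all genes). Egr1, an immediate early transcription factor, stood at 153, 894 and 501 CPM among naive libraries and at 94.7 to 134 CPM among allografts (log2 fold change -2.56, SE 0.66, adjusted p = 0.197), and DESeq2 called it (-2.86, adjusted p = 0.0112). Ier3, another immediate early gene, stood at 14.5, 166 and 52.3 CPM among naive libraries and at 11.9 to 23.8 CPM among allografts (-2.57, SE 0.86, adjusted p = 0.341). The antiproliferative gene Btg2 stood at 355, 777 and 1408 CPM among naive libraries and at 382 to 470 CPM among allografts (-1.20, SE 0.49, adjusted p = 0.448). Without naive replicate 2 edgeR called 3 of the 105 genes, where it called 3.1% of all genes, and they were looked up after their calls were seen. These were Hspa4, an HSP110 relative of Hsph1, at -0.98 (SE 0.18, adjusted p = 0.0466), Pdia4, a disulphide isomerase, at 2.27 (SE 0.37, adjusted p = 0.0433), and Dnaja3, a mitochondrial HSP40, at 4.85 (SE 0.89, adjusted p = 0.0477). Dnaja3 had 62.4 CPM in naive replicate 2, more than the 5.82 to 21.5 CPM of the allografts.

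The genes most like Hspa8 over the 7 libraries, among 4800 candidates outside the lists, were Ada (Pearson's r of log2 CPM 0.996), Rnf166 (0.995) and Nck2 (0.995). Those most like the summed Hspa1a and Hspa1b were Klrb1b (0.991), Lypla2 (0.990) and Bhlhe40 (0.988). Each was lowest in naive replicate 2, as were Hspa8 and the Hspa1 sum, with 0.703 CPM of Klrb1b and 10.4 CPM of Ada there. These coefficients describe 7 libraries that share the low values of that library.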

How the data were processed

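RNA of 7 sorted ILC2 libraries was analysed, 3 naive and 4 allograft, grouped by their titles. The authors deposited raw counts per gene and FPKM for the same identifiers, and the authors' FPKM are scaled to gene length and depth. STAR 2.5.3a, StringTie 1.3.1c, DESeq2 1.16.1 and the build mm10 are named in the submitters' processing notes, without their roles. The counting tool, the annotation and the use of strand are not given in the sources used here. Full-length cDNA was amplified with a single-cell kit, per the labels' protocols, and the labels mention no molecular identifiers, so counting error understates the error of a value. Among the 7340 genes that reached 100 counts in each library, log2 FPKM over CPM was constant up to 1 factor per library (largest SD 0.00352).

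Counts were tested with edgeR 4.0.16 (R 4.3.3, quasi-likelihood, TMM, filterByExpr, Benjamini-Hochberg over all 17015 genes kept, threshold 0.05), allograft against naive, without a covariate. Standard errors are those implied by F. The script was tested on simulated counts. The alternatives were DESeq2 1.42.0, its size factors, other filters, no mitochondrially encoded genes, limma 3.58.1 on log2(FPKM + 1) or log2(FPKM + 0.1), a replicate block and leaving out each library. Coordinates are from GENCODE M21 on mm10. The genes, the 5 companion and 10 marker lists and the tests were chosen with earlier results of these data known. Named were the 10 genes, the 3 smallest p of each companion list, 5 fixed genes (Hsf1, Hsp90b1, Hspa9, Bag3, Hspb1) and the 3 most correlated genes.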

Additional observations from a re-analysis of the deposited data

Results flagged for a closer look

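Among 44 values examined for an allograft library far from the other 3 (heat shock genes, ratios, list sums and named genes), 1 stood apart, where chance gives about 2.2. It was the summed myeloid list, at 315 CPM in allograft replicate 1 against 193 to 206 CPM in the others. None of the 10 heat shock genes stood apart in this way.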

How the results depend on the processing

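None of the 10 genes passed the threshold under any of the 16 alternatives or with Hspa1a and Hspa1b summed, and the lowest adjusted p in any of them was 0.136, for Hspe1 without naive replicate 2. The number of all genes past the threshold was 6, but 1244 with DESeq2, 144 and 168 with limma on log2(FPKM + 1) and log2(FPKM + 0.1), 28 with limma without a filter and 0 with a replicate block. Leaving out 1 library gave 0 (any allograft) to 560 (naive replicate 2), with 107 without naive replicate 1. Of the companion genes, 2 passed with DESeq2 and 0 to 3 when 1 library was left out. The direction of Dnajb1 turned to 0.28 with the replicate block, 0.36 or 0.37 with limma on FPKM (0.362, 0.366 and, without a filter, 0.362) and lay between -0.43 and 0.77 over the fits that left out 1 library. That of Hspd1 turned to 0.11 with limma (0.106, 0.108 and 0.106) and lay between -0.19 and 0.15 without single libraries. Hspa8 lay between -0.078 (without naive replicate 2) and 0.63, and the log2 ratio difference of Hsp90aa1 over Hsp90ab1 between -0.0561 (without naive replicate 1) and 0.204. The other 7 genes were higher in allografts under all 16 alternatives. With the replicate block all 10 adjusted p were 1. The replicate numbers were not taken as pairs: deviations from the group means of same-numbered libraries correlated at -0.02 to 0.036, and 1 of 3 naive libraries was most like the allograft of its own number. The median of all genes tested was -0.20 with DESeq2 size factors, 0.35 with limma on log2(FPKM + 1) and 0.55 with the block. The cause of these shifts was not tested. With 1 library left out, 6 libraries are too few for the exact tests of the ratios to reach the threshold.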
